A study of Homo sapiens with 6 samples.

Results

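The interferon-stimulated genes are transcripts that cells make in response to interferons. The 46 genes described here were given as a list of gene symbols, and each was found in 1 row of an expression table of 63009 genes. The table comes from RNA-seq of IMR90 cells, a line of human lung fibroblasts, with a stable, tamoxifen-responsive construct of H-RasV12 (ER:RAS), called ERRAS cells, which were kept under G418 in 3% oxygen. Control mitotic cells (n = 3 libraries) were left uninduced, and Ras-induced mitotic cells (n = 3 libraries) were exposed to tamoxifen for 4 days, at 100 nM by the sample labels; the study's methods name 4-hydroxytamoxifen at another dose. Both groups carry the construct, and both were arrested in mitosis with 1 µM DME (dimethylenastron), an inhibitor of the mitotic kinesin Eg5, and collected as detached cells. Nothing in the labels states that the libraries of a group came from separate cultures, so the p-values measure the spread between these libraries, which may be technical, although the study's text speaks of independent repeats. No library without DME, without the construct or treated with interferon enters the comparison.

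Interferons bind receptors at the cell surface, and the receptors activate JAK kinases that phosphorylate STAT proteins. A complex that holds STAT2 and IRF9 binds the interferon-stimulated response element in front of target genes, whereas other STAT complexes bind the gamma-activated site. The products of the target genes detect foreign nucleic acid, degrade or block viral RNA, change membranes so that virus cannot enter, and limit the signal itself. In fibroblasts the pathway can be started by interferon from outside or by nucleic acid sensors inside the cell, and transcription in general is low during mitosis.

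Expression was deposited as FPKM, in which a gene's fragments are divided by the length of its transcript and by the library's fragments. The test, limma, was applied to genes averaging 1 FPKM or more over the 6 libraries, on log2(FPKM + 1), and "rose", "fell" and "called" below mean a Benjamini-Hochberg adjusted p of at most 0.05 over the 13993 genes tested. All differences are Ras-induced minus control on that log2 scale, where changes of low genes come out too small. Read totals were not used here, but the steps between low FPKM values put the libraries at 0.85 to 1.17 times the depth of the first control library. HRAS, the gene carried by the construct, measured 1174, 1176 and 1140 FPKM in control libraries against 1439, 1847 and 1473 FPKM after induction (difference 0.44 ± 0.11 (SE), adjusted p = 0.0431, called in 4 of 14 alternative settings and, with 1 library left out, only without Ras-induced library 2, the others giving 0.0587 to 0.124), and endogenous and construct reads cannot be told apart. Of the fibroblast markers all 7 were expressed, at a summed 5353 to 6263 FPKM in control and 3934 to 5285 FPKM in Ras-induced libraries. Control and induced means were 924 and 379 FPKM for COL1A2 and 235 and 103 FPKM for THY1, both called lower. COL1A1 (1345 and 550 FPKM, limma adjusted p = 0.0501) and COL3A1 (253 and 114 FPKM, 0.0553) were not called. In these 4 every Ras-induced library was under every control, beside 12.8% of all tested genes, while PDGFRB, VIM and FN1 overlapped. Of 8 leukocyte markers, 7 stayed under 0.2 FPKM in every library, of which CD3E, NKG7 and ITGAM were listed at 0 in all, and the sum of the list, 25.4 to 30.9 FPKM in control and 30.6 to 36.1 FPKM in Ras-induced libraries, was nearly all CD68. All 4 endothelial markers were under 0.2 FPKM throughout (sums 0.0738 to 0.138 and 0.0893 to 0.128 FPKM), and the 4 epithelial markers summed to 20.4 to 32.7 and 20.9 to 25.6 FPKM, nearly all KRT5 and KRT8. EPCAM, too low for the test, had 1.05, 0.880 and 1.80 FPKM in control and 0.272, 0.167 and 0.424 FPKM in Ras-induced libraries, with no overlap, and its adjusted p was 0.0425 with a filter at a mean of 0.1 FPKM and 0.0774 with no filter. The 6 mitotic genes summed to 1570 to 1634 FPKM in control and 1289 to 1432 FPKM in Ras-induced libraries. In all 6 every Ras-induced library was under every control, beside 12.8% of all tested genes. Of them PLK1, BUB1 and CENPF were called lower, beside 5.67% of all tested genes, and were called in 3, 6 and 11 of 14 alternatives. The part of these shifts in the results below was not tested.

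After Ras induction a few interferon-stimulated genes rose, a smaller number fell, and most were either not called or too low to test. ISG20, USP18, DDX58, IFIT3 and IFI16 rose, whereas OAS3 and GBP1 fell. Thus 7 of the 32 members that could be tested were called (21.9%), against 16.7% of all genes tested. By direction, 5 members rose where 11.0% of all tested genes did, and 2 fell where 5.67% of all tested genes did. The remaining 14 members had a mean under 1 FPKM and were not tested. With quantile normalization the all-gene calls changed from 1543 higher and 793 lower to 1044 higher and 1109 lower, and with upper-quartile scaling to 921 higher and 1101 lower, while the members stayed at 5 higher and 2 lower under both. The median difference was 0.20 over the tested members and 0.10 over all tested genes, and quantile normalization moved these medians to 0.12 and 0.01. In bulk RNA, fewer cells expressing a gene and less RNA per cell cannot be told apart. The count of called members depended on single libraries, being 4 without control library 1 or without Ras-induced library 3 and 9 without control library 3.

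**Figure D1:**
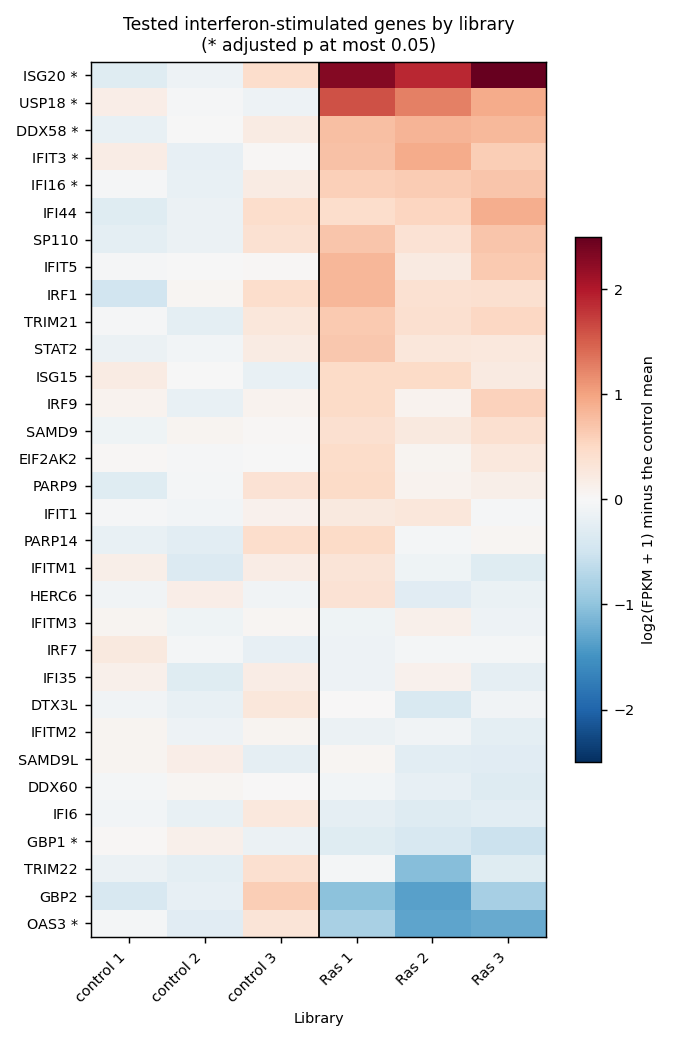
Heat map of the 32 tested interferon-stimulated genes (rows, ordered by difference) in the 6 libraries (columns), where color gives log2(FPKM + 1) minus the mean of the 3 control libraries and an asterisk marks an adjusted p of at most 0.05. ISG20 is the darkest row, and in OAS3, GBP2 and GBP1 all 3 Ras-induced libraries are under the controls.

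The groups stood apart, with every Ras-induced library above or under every control library, in 16 of the tested members (11 higher, 5 lower), beside 39.9% of all tested genes (27.1% higher, 12.8% lower). Unadjusted p was under 0.05 in 16 of the 32 members and in 33.6% of all tested genes, and 6 members, 5 of them with a positive difference, had an adjusted p between 0.05 and 0.1, as had 9.64% of all tested genes. The sign of the difference was positive in 18 tested members and negative in 14, beside 8771 and 5222 of all 13993 tested genes. In none of the members did it turn under quantile or upper-quartile scaling, which left 7224 and 7093 of all tested genes positive. One control library differed from the others in this list. Control library 3 was the highest of the controls in 21 of the 32 tested members but in 31.0% of all tested genes. The median log2(FPKM + 1) of the tested members was 2.92 in it, compared with 2.34 and 2.35 in the other controls and 2.89 to 3.04 in the Ras-induced libraries, whereas over all tested genes it was 3.67, 3.71 and 3.71 in the controls and 3.76 to 3.84 in the Ras-induced libraries.

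The promoters of the members were read from RefSeq (GRCh38.p14, 250 bases before to 50 bases after a gene's start) to see which held the letters of the elements through which interferon acts. A window was found for 37 of the 46 members. The letters GAAA, then any 2 bases, then GAAA again (the GAAA pair), a core of the interferon-stimulated response element, were present on either strand in the windows of 25 of these members (67.6%), compared with 4.38% of the 27305 genes with a window. By window the shares were 59.2% of 49 member windows and 3.57% of all 35116 windows. TTCNNNGAA, the letters of the gamma-activated site, were present in 11 members (29.7%) and in 24.5% of their windows, compared with 7.66% of all windows, and the matches of both motifs overlapped in 5 member windows. The GAAA pair was present in 2 of 4 called-higher members with a window, in both called-lower members, in 14 of 21 members that were not called and in 7 of 10 that were not tested. Members with and without these letters were thus found among both the called and the uncalled genes. The 160 bases before the start are printed below, 5′ to 3′ on the strand of the gene, for the called members with a window, because they show the element in genes that rose (ISG20, IFIT3) and in genes that fell (OAS3, GBP1), and 2 genes that rose without a match (DDX58, IFI16). IFIT3 and IFI16 each had a further window at another start, which is not printed. That of IFIT3 also held the GAAA pair, and that of IFI16 did not. USP18, the remaining called member, had no window. Capitals mark the GAAA pair or its reverse complement. A match is a description of letters and not a measured binding site.
ISG20 (chr15:88638856-88639015, + strand): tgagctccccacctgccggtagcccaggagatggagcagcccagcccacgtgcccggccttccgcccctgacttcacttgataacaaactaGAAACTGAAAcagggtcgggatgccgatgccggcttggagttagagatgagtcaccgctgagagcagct
IFIT3 (chr10:89332369-89332528, + strand): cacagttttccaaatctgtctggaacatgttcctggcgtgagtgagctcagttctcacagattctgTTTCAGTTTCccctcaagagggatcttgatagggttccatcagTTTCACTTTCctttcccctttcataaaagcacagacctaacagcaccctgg
OAS3 (chr12:112938314-112938473, + strand): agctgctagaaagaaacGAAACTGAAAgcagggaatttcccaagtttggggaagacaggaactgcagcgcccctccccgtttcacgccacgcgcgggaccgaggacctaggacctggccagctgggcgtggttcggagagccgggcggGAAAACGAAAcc
GBP1 (chr1:89065209-89065368, − strand): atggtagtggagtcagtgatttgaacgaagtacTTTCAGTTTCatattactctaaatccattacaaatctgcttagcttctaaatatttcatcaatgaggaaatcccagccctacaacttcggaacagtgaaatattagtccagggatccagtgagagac
DDX58 (chr9:32526197-32526356, − strand): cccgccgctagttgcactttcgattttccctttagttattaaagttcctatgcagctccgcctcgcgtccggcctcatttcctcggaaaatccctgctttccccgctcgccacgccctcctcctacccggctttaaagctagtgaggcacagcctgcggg
IFI16 (chr1:159008831-159008990, + strand): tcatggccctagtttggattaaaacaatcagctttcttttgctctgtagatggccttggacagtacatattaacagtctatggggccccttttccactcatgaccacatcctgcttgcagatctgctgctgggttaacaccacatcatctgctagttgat

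Of the 4 nucleic acid sensors in the list, DDX58 and IFI16 rose, DDX60 was not called and IFIH1 was not tested, so that 2 of 3 tested sensors rose where 11.0% of all tested genes did. DDX58 (ENSG00000107201, chr9:32455300-32526206 in GRCh37, the build of the files) encodes RIG-I, which recognizes viral RNA ends in the cytoplasm. Its level was 2.79, 3.28 and 4.02 FPKM in the control libraries and 6.34, 6.82 and 6.57 FPKM in the Ras-induced libraries, or 3.36 ± 0.621 and 6.57 ± 0.241 FPKM (mean ± SD, n = 3). Every Ras-induced library was above every control, the means differed by 1.95-fold, and the difference of 0.80 ± 0.14 (SE; limma adjusted p = 0.0124) passed in all 14 alternatives. IFI16 (ENSG00000163565, chr1:158969758-159024945) encodes a sensor of DNA. It was among the more abundant members, with 31.0, 27.9 and 36.9 FPKM in control and 48.3, 50.01 and 51.7 FPKM in Ras-induced libraries. The means of 32.0 ± 4.58 and 50.01 ± 1.69 FPKM differed by 1.56-fold with no overlap (difference 0.64 ± 0.11, adjusted p = 0.0141), but the call was lost without control library 1 (adjusted p = 0.0509) and without Ras-induced library 3 (0.0554). DDX60, a helicase described as a cofactor of RIG-I, had means of 2.43 ± 0.135 and 1.99 ± 0.258 FPKM, with every Ras-induced library under every control (difference -0.20, adjusted p = 0.386). IFIH1, which encodes the RNA sensor MDA5, averaged 0.582 FPKM in control and 0.392 FPKM in Ras-induced libraries.

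The 4 transcription factors among the members, STAT2, IRF9, IRF1 and IRF7, were not called. IRF3, which is in the pathway lists and not a member, was called and is given below. Unadjusted p was under 0.05 in 2 of the 4, STAT2 and IRF9, beside 33.6% of all tested genes (16.7% called). STAT2 had 10.5, 11.2 and 13.7 FPKM in control and 19.3, 14.5 and 14.4 FPKM in Ras-induced libraries, which do not overlap (difference 0.41, adjusted p = 0.113). For IRF9, the DNA-binding partner of STAT2, the difference was 0.38 (adjusted p = 0.144) and the libraries overlapped. IRF1, a factor induced early by interferon gamma, had 3.02, 4.80 and 6.61 FPKM in control and 9.02, 6.31 and 6.43 FPKM in Ras-induced libraries. The highest IRF1 control was above 2 of the Ras-induced libraries (difference 0.54 ± 0.25, adjusted p = 0.190), and an antisense gene, C5orf56, overlaps it in libraries that kept no strand. IRF7, which drives interferon alpha genes, had the low means of 1.96 and 1.78 FPKM (difference -0.08, interval -0.50 to 0.34).

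ISG15 is a ubiquitin-like protein that is attached to other proteins by HERC5, and USP18 removes it and also blocks the interferon receptor. USP18 (ENSG00000184979, chr22:18632885-18660164) rose, from 3.74, 3.12 and 2.87 FPKM in the control libraries to 11.7, 9.08 and 6.996 FPKM in the Ras-induced libraries. All induced values were above all control values, and the means of 3.25 ± 0.450 and 9.25 ± 2.34 FPKM differed by 2.85-fold (difference 1.25 ± 0.19, adjusted p = 0.00910, called in all 14 alternatives). The near-identical gene USP41 had means of 6.05 FPKM in control and 17.4 FPKM in Ras-induced libraries, and since reads can be divided between these genes the value of USP18 itself is uncertain. ISG15 was 24.2, 20.9 and 18.3 FPKM in control and 29.5, 29.9 and 24.8 FPKM in Ras-induced libraries. These values do not overlap, but the difference of 0.39 ± 0.13 was not called (adjusted p = 0.0811). HERC5 was listed at 0 in 2 control libraries and did not exceed 0.124 FPKM elsewhere, and with no filter on low values, the setting that fitted it, it was called (difference 0.15, adjusted p = 0.0249). HERC6 was close to 1 FPKM in both groups (difference -0.03, adjusted p = 0.946).

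**Figure D2:**
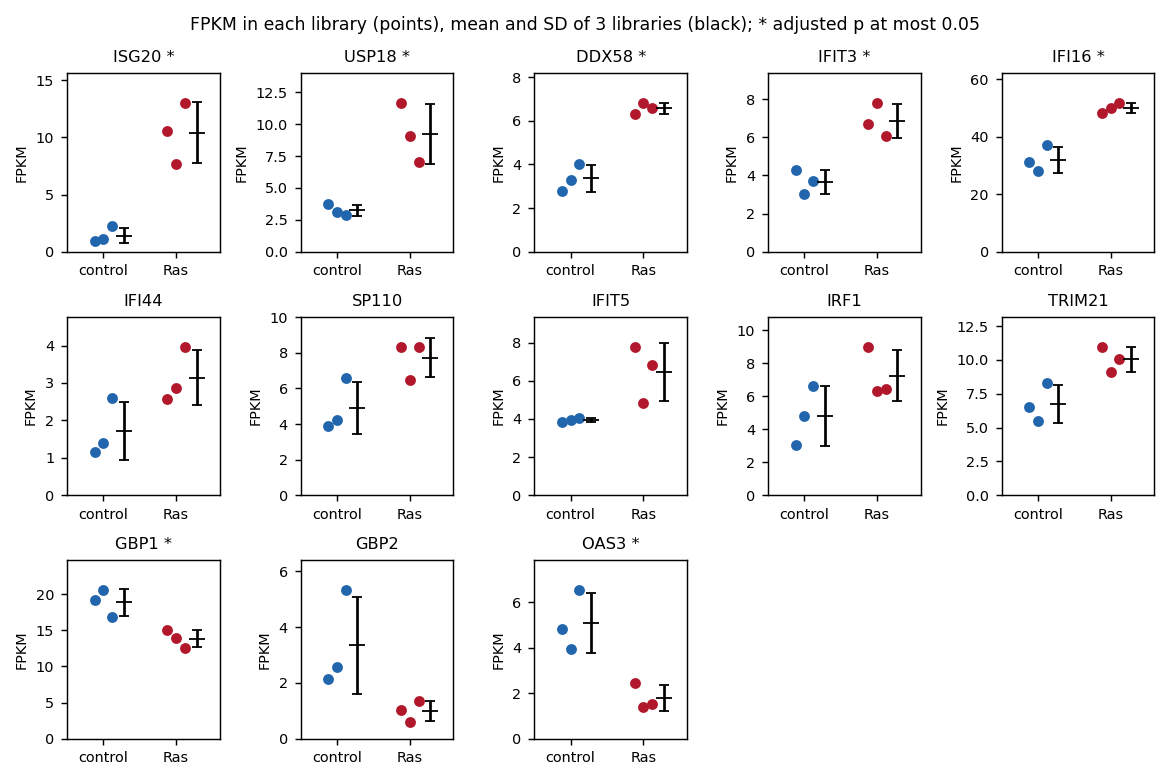
FPKM in each control and Ras-induced library (points, 3 per group) for the 13 genes that were called or whose absolute difference was at least 0.5, with the mean and SD of the 3 libraries in black and each vertical axis starting at 0. ISG20 ran from 0.896 to 2.20 FPKM in the controls and from 7.68 to 13.0 FPKM after induction, while GBP2, IFI44 and IRF1 show how control library 3 lay above the other controls.

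Of 12 effectors grouped here as directed at RNA, a loose name for the untested CMPK2 and RSAD2, 6 were tested. Of the tested ones ISG20 and IFIT3 rose and OAS3 fell, beside 11.0% of all tested genes called higher and 5.67% called lower. ISG20 (ENSG00000172183, chr15:89178901-89199714), an exonuclease that degrades RNA, had the largest change of the tested members. Its levels were 0.896, 1.14 and 2.20 FPKM in control and 10.5, 7.68 and 13.0 FPKM in Ras-induced libraries. The lowest induced library was thus above the highest control, and the means of 1.41 ± 0.696 and 10.4 ± 2.67 FPKM differed by 7.36-fold (difference 2.25 ± 0.26, adjusted p = 0.00424). ISG20 was called in all 14 alternatives, with adjusted p between 0.00163 and 0.0225.

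The IFIT proteins bind the ends of foreign RNA, and their genes lie side by side on chromosome 10. IFIT3 (ENSG00000119917, chr10:91087064-91137230) had 4.26, 3.00 and 3.69 FPKM in control and 6.67, 7.79 and 6.06 FPKM in Ras-induced libraries. Means of 3.65 ± 0.631 and 6.84 ± 0.880 FPKM differed by 1.87-fold without overlap (difference 0.76 ± 0.15, adjusted p = 0.0199), and the call was lost without control library 2 (0.0638), without Ras-induced library 1 (0.0604), without Ras-induced library 2 (0.0551) and without a filter on low values (0.0541). LIPA, on the opposite strand of IFIT3, was at 18.1 and 15.3 FPKM, and without strand its reads over the overlap cannot be separated from those of IFIT3. IFIT5, 8081 bp from IFIT1, had 3.84, 3.94 and 4.06 FPKM in control and 7.80, 4.81 and 6.81 FPKM in Ras-induced libraries. All induced libraries were above the controls, but the spread among them was wide and IFIT5 was not called (difference 0.57 ± 0.17, adjusted p = 0.0623; without Ras-induced library 2, 0.0230). IFIT1 was at 2.501 ± 0.229 and 2.94 ± 0.445 FPKM, with overlapping libraries (difference 0.16, adjusted p = 0.472). IFIT2 was too low for the test, at 0.414, 0.217 and 0.160 FPKM in control and 0.764, 0.840 and 0.695 FPKM in Ras-induced libraries. With a filter at a mean of 0.1 FPKM it was called (difference 0.49, adjusted p = 0.0479), and with no filter its adjusted p was 0.0568.

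The 2′-5′ oligoadenylate synthetases make the messenger that activates RNase L, and OAS1, OAS3 and OAS2 follow each other on chromosome 12, separated by 4832 and 1935 bp. OAS3 (ENSG00000111331, chr12:113375856-113414265) was at 4.80, 3.95 and 6.54 FPKM in the control libraries but 2.44, 1.39 and 1.52 FPKM in those from induced cells. No libraries overlapped, the control mean of 5.10 ± 1.32 FPKM was 2.86 times the induced mean of 1.78 ± 0.570 FPKM, and OAS3 fell (difference -1.13 ± 0.22, adjusted p = 0.0191). This call was lost without control library 1 (0.0588), without Ras-induced library 2 (0.0545), without Ras-induced library 3 (0.0649) and without a filter on low values (0.0591). The neighbors OAS1 and OAS2 averaged under 0.1 FPKM, and OASL, encoded elsewhere, averaged 0.110 and 0.230 FPKM. EIF2AK2 (PKR), the kinase that halts translation on sensing double-stranded RNA, had 13.1, 12.6 and 12.7 FPKM in control and 17.8, 13.4 and 15.4 FPKM in Ras-induced libraries, apart but not called (difference 0.26, adjusted p = 0.163).

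The effectors that act on membranes, the IFITM proteins and the GTPases, were the group in which all 5 tested members had a negative difference (median -0.16, and negative in each under both other scalings), as had 5222 of all 13993 tested genes. Over all tested genes 8771 differences were positive, and fewer, 7224 and 7093, were so under quantile and upper-quartile scaling. Libraries overlapped in the 3 IFITM genes, and GBP1 was the only one of the 5 called. GBP1 (ENSG00000117228, chr1:89517565-89531043), a guanylate-binding GTPase induced mainly by interferon gamma, was at 19.1, 20.6 and 16.8 FPKM in control and at 15.0, 13.9 and 12.6 FPKM in Ras-induced libraries. The means of 18.8 ± 1.89 and 13.8 ± 1.198 FPKM differed without overlap (difference -0.42 ± 0.11, adjusted p = 0.0449), but GBP1 kept its call in 6 of 14 alternatives, and leaving out control library 1 or 2 or any Ras-induced library gave an adjusted p from 0.0707 to 0.139. GBP2, 40772 bp away, had 2.13, 2.58 and 5.33 FPKM in control and 1.03, 0.609 and 1.34 FPKM in Ras-induced libraries. Every GBP2 value after induction was under every control, yet the difference of -1.07 ± 0.30 was not called (adjusted p = 0.0574). Without control library 3 the difference was -0.76 (adjusted p = 0.0881), and GBP2 was called in 3 of 14 alternatives, among them a pseudocount of 0.1 (0.0416) and a filter of at least 1 FPKM in 3 libraries (0.0356).

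IFITM3 and IFITM2 were the most abundant members, and IFITM1 came after IFI16. They encode proteins that keep enveloped viruses from fusing with the cell. IFITM3 had 177 ± 11.8 FPKM in control and 173 ± 17.0 FPKM in Ras-induced cells, a difference of -0.04 with a 95% interval of -0.27 to 0.19. For IFITM2 the levels were 107 and 95.9 FPKM (difference -0.16, interval -0.37 to 0.06), and for IFITM1 26.0 ± 5.11 and 25.6 ± 6.02 FPKM (difference -0.03, interval -0.51 to 0.46). In each of the 3 the libraries of both groups overlapped, and since these genes lie within a few kilobases and are closely similar, reads could be divided between them. Among the GTPases MX1 and MX2, and the tether BST2, means were under 1 FPKM in both groups.

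**Figure D3:**
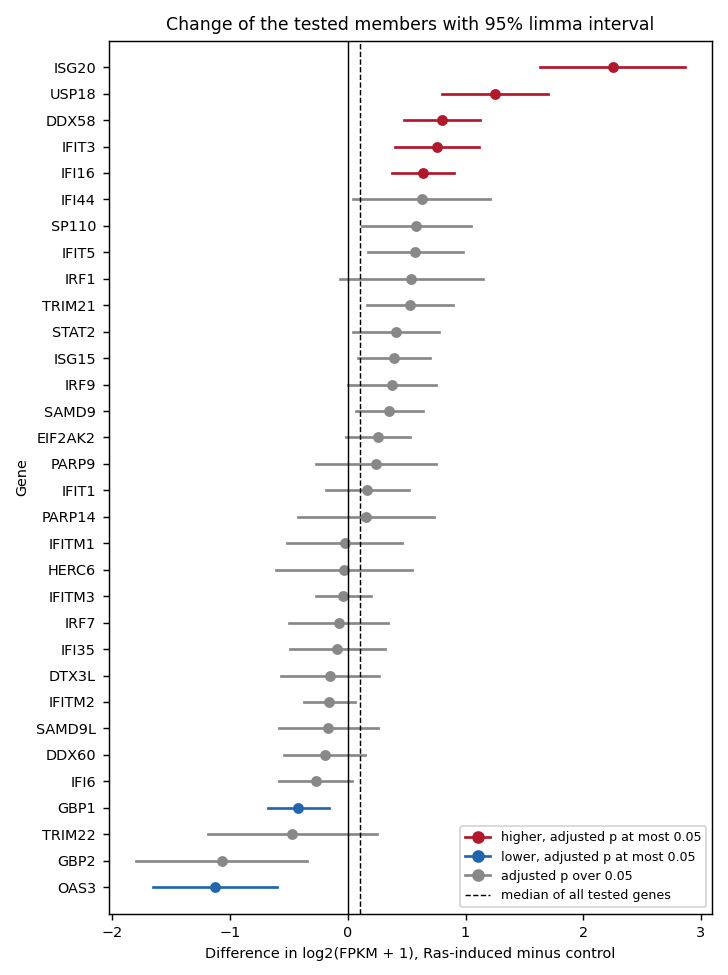
Difference in log2(FPKM + 1), Ras-induced minus control, for the 32 tested members with 95% limma intervals, red for the 5 called higher, blue for the 2 called lower and gray for the rest, with a dashed line at the median of all tested genes (0.10). ISG20 lies at 2.25 and OAS3 at -1.13, and most gray intervals reach 0.

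Of the enzymes of ubiquitin and ADP-ribose transfer, none of 5 was called, with 1 at an unadjusted p under 0.05, beside 16.7% and 33.6% of all tested genes. That gene was TRIM21, a ubiquitin ligase and antibody receptor, at 6.51, 5.46 and 8.26 FPKM in control and 11.0, 9.13 and 10.03 FPKM in Ras-induced libraries. The groups did not overlap, and the difference of 0.53 ± 0.15 had an adjusted p of 0.0611 (0.0298 without control library 3). PARP9, DTX3L and PARP14, which act together in ADP-ribosylation, lay between -0.15 and 0.24, and TRIM22 at -0.47 (adjusted p = 0.319). SP110, a nuclear body protein, was at 3.90, 4.25 and 6.57 FPKM in control and 8.35, 6.48 and 8.34 FPKM in Ras-induced libraries. Its highest control was above its lowest induced library (difference 0.58 ± 0.19, adjusted p = 0.0877, 0.0280 without control library 3), and SP140 on the opposite strand had means of 2.35 and 4.31 FPKM. IFI44 had 1.16, 1.41 and 2.59 FPKM in control and 2.57, 2.87 and 3.97 FPKM in Ras-induced libraries, again overlapping only through control library 3 (difference 0.63 ± 0.24, adjusted p = 0.126). SAMD9, which restricts poxviruses, was apart and higher (difference 0.35, adjusted p = 0.0866), its neighbor SAMD9L was at -0.17 (adjusted p = 0.548), and IFI6 was apart and lower (difference -0.27, adjusted p = 0.196). For IFI35 the difference was -0.09 (adjusted p = 0.748).

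Of the 46 members, 14 averaged under 1 FPKM and were not tested, as did 77.8% of all 63009 genes. They were IFIT2, MX1, MX2, OAS1, OAS2, OASL, IFI27, IFI44L, IFIH1, RSAD2, HERC5, BST2, XAF1 and CMPK2, with means from 0.0318 to 0.958 FPKM. Of these, 10 had a mean under 0.5 FPKM and 5 under 0.1 FPKM, and 6 were listed at 0 in at least 1 library, although none was at 0 in all. The highest single value was 1.47 FPKM, for IFI27 in a control library. The libraries stood apart in 3 of the 14, beside 14.9% of the 9967 untested genes whose mean was at least that of the lowest untested member (8.04% higher, 6.87% lower), being higher after induction in IFIT2 and HERC5 and lower in IFI27, which averaged 1.195 FPKM in control and 0.722 FPKM in Ras-induced libraries. RSAD2, OAS1 and MX1, which are among the best known interferon-induced antiviral genes, had control and induced means of 0.0526 and 0.0110, 0.0438 and 0.0426, and 0.688 and 0.976 FPKM. Over the tested members the median of the mean FPKM was 5.65, compared with 13.0 over all tested genes.

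The rest of the pathway was read from 5 lists, of ligands, receptors and transducers, sensors and regulators, class I antigen presentation, and further interferon-induced genes. Of 93 genes listed, 59 were tested and 6 were called (10.2%, beside 16.7% of all genes), 3 higher and 3 lower. This count was 3 without control library 2 or 3 and 1 without any of the other libraries. None of the 16 interferon ligand genes reached the test, 11 were listed at 0 in every library, and the highest value was 0.490 FPKM, for IFNE in a Ras-induced library. Among 12 tested receptors and transducers, limma called none, with 1 at an unadjusted p under 0.05 (IFNGR2, difference 0.34, adjusted p = 0.0548).

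IRF3, the factor that RIG-I and STING switch on, rose among the sensors and regulators, from 38.5, 40.4 and 36.3 FPKM to 52.3, 58.1 and 52.6 FPKM (difference 0.49 ± 0.08, adjusted p = 0.0121). It was called in all 14 alternatives and was the only one called of 13 (7.69%, beside 16.7% of all tested genes). TMEM173, which encodes STING, stood at 108 ± 8.04 and 125 ± 10.9 FPKM (difference 0.20, adjusted p = 0.185). LAP3 and TRIM38 were the 2 called of 18 tested other interferon-induced genes (11.1%, beside 16.7% of all tested genes). Each had a difference of 0.40, but neither passed after quantile normalization (adjusted p = 0.0676 for LAP3 and 0.0699 for TRIM38). Without control library 3 LAP3 kept its call, and leaving out each of the other libraries gave 0.0513 to 0.0901, while TRIM38 was lost without any 1 library (0.0637 to 0.144).

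Class I antigen presentation, which interferons raise, had 3 called genes among 16 tested (18.8%, beside 16.7% of all genes), all lower, where 5.67% of all tested genes were called lower. HLA-B, a peptide-presenting heavy chain, was at 171, 156 and 229 FPKM in control and 117, 108 and 115 FPKM in Ras-induced libraries, with no overlap (difference -0.68 ± 0.15, adjusted p = 0.0254). B2M, the light chain, had means of 1359 ± 117 and 1082 ± 16.8 FPKM (difference -0.32, adjusted p = 0.0488), and the trimming peptidase ERAP1 had 18.7 ± 2.46 and 12.3 ± 1.70 FPKM (difference -0.57, adjusted p = 0.0379). HLA-B kept its call without control library 2 or 3 and stood at 0.0600 to 0.0752 without each of the others, ERAP1 kept its call without control library 2 only (0.0542 to 0.111 otherwise), and B2M was lost without any 1 library (0.0766 to 0.163). The libraries were apart and lower in 7 of the 16 tested genes of this list and apart and higher in 1, beside 12.8% and 27.1% of all tested genes, and the median difference was -0.21, compared with 0.10 over all tested genes. HLA genes are similar in sequence, so reads may be divided among them.

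**Figure D4:**
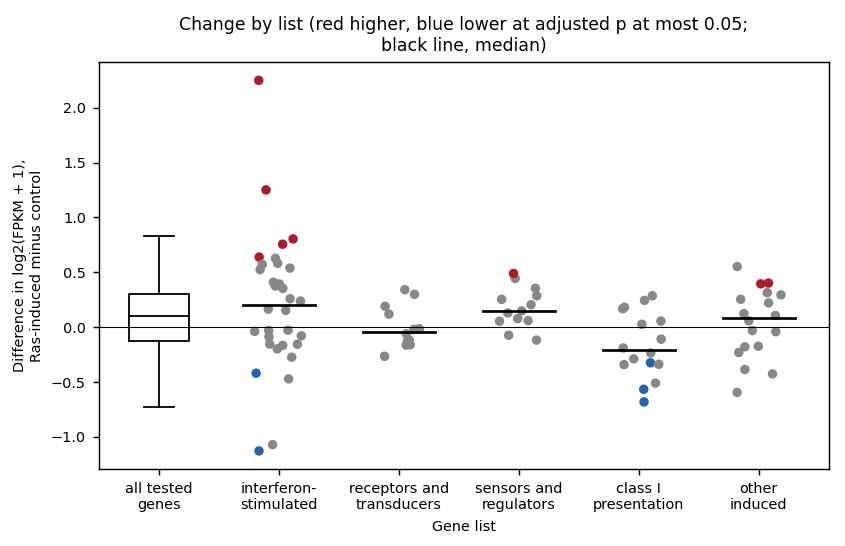
Difference in log2(FPKM + 1), Ras-induced minus control, for each tested gene (points) of the interferon-stimulated list and 4 pathway lists, with a box for all tested genes (quartiles, whiskers at the 5th and 95th percentiles) and black lines at medians. Red and blue points are genes called higher and lower, and the medians are 0.20 for the interferon-stimulated genes, -0.04 for receptors and transducers, 0.15 for sensors and regulators, -0.21 for class I presentation and 0.08 for other induced genes.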

How the data were processed

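The authors trimmed paired-end reads of poly(A) RNA (unstranded TruSeq v2 libraries) with Trim Galore 0.3.0 and aligned them to hg19 with TopHat2 and Ensembl build 73 junctions, and deposited FPKM values per gene and library calculated with Cufflinks. Since column names show a group and a number but no sample, each library counted as a replicate of the group it names. Left out of the deposited matrix were 120 genes with more than 6 values (no member among them), a second header line and 18 unnamed columns. A deposited Cuffdiff comparison (group FPKM, fold changes, test statistics, p- and q-values) was not used.

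Genes averaging 1 FPKM or more entered the test on log2(FPKM + 1), a pseudocount of 1, in limma 3.58.1 (lmFit, eBayes with trend) in R 4.3.3, two-sided, with Benjamini-Hochberg adjustment over 13993 genes. Count models were not applied, as FPKM are not counts, and depth was read only relatively, from the FPKM values. The procedure was tested on simulated data. The fit was repeated under 14 alternatives, in each for the genes that passed its filter: a pseudocount of 0.1, 3 other filters, quantile and upper-quartile scaling, no trend, a replicate block, and each library left out. Members and lists were chosen with earlier results of these data known. Named in full were members that were called or differed by at least 0.5, then the 5 of highest mean FPKM, and of the pathway lists the called genes and at most 4 others. A few further members are named to account for the list. Gene coordinates are from GENCODE 44 lifted to GRCh37 (the build of hg19).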

Additional observations from a re-analysis of the deposited data

How the results depend on the processing

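Of 280 recomputed gene values (20 genes under 14 alternatives), 203 kept their direction and side of the threshold, 71 kept the direction but were no longer called, 6 became called, and 0 turned. ISG20, USP18, DDX58 and IRF3 were called in all 14. Calls over all genes were 2336, with 1518 when no filter was used and 548 when an absolute difference of at least 1 was also asked, and 998 to 1956 with 1 library left out. Called members were 7, with 3 at an absolute difference of at least 1 and 4 to 9 with 1 library left out. Called pathway genes were 6, with 3 at a mean of at least 0.1 FPKM, 3 with no filter, 0 at an absolute difference of at least 1 and 1 to 3 with 1 library left out. Fewer libraries, more tested genes or a stricter call enter by construction; other causes were not tested.

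The labels do not state whether control and Ras-induced libraries of the same column number belong together. Deviations of same-numbered libraries correlated at -0.00266 to 0.0481 across genes, those of others at -0.0679 to 0.0311, and 4 of 6 libraries correlated best with their own number, a hint from the data only. With the replicate block, 2310 genes, 9 members (the 7 above, GBP2 and ISG15) and 4 pathway genes were called. No detection limit was measured, and a gene that was not called is not shown to be unchanged.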
